A study of Mus musculus with 4 samples.

Results

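The killer lectin-like receptors (Klr) are C-type lectin-like proteins on the surface of lymphocytes and some myeloid cells. The members described here are every gene in the files whose symbol begins with Klra, Klrb, Klrc, Klrd, Klre, Klrg, Klrh, Klri or Klrk. This rule took 26 of the 32285 genes listed: 11 Klra, 5 Klrb, 3 Klrc, 1 Klrd, 1 Klre, 2 Klrg, 2 Klri and 1 Klrk symbols, and 0 Klrh symbols. Their expression was followed by 10x Genomics 3′ single-cell RNA sequencing of perfused and digested livers of male C57BL/6J mice. The mice arrived at 5 weeks of age and had 1 week of acclimation, 14 weeks of diet and 8 weeks of intervention. The NCD group (1 library) ate normal chow throughout, the HFD group (2 libraries, HFD 1 and HFD 2) ate a high-fat diet with 60% of the energy from fat, and the JQF group (1 library) was given Jiangtang Qingre Formula, a mixture of several herbs, on top of that diet. NCD and JQF had no replicate, and nothing in the labels ties the HFD libraries to separate animals beyond their replicate numbers. The p-values of group comparisons therefore rest only on the spread between those libraries. The tests borrow part of that spread from other genes, so a p-value does not measure the spread of its own gene alone. Comparisons of cell types within libraries measure the spread of the difference over all the libraries they hold.

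The family works as a set of paired controls on killing. Inhibitory members such as the Ly49 receptors Klra1, Klra3, Klra7 and Klra9, or Klrc1 (NKG2A) with its partner Klrd1 (CD94), recognize classical or non-classical MHC class I molecules and signal through the phosphatase Ptpn6. Activating members such as Klra4 (Ly49D), Klra8 (Ly49H), Klrc2 (NKG2C) and Klrk1 (NKG2D) have no signalling tail of their own and pair with the adaptors Tyrobp or Hcst. Natural killer (NK) cells, liver type 1 innate lymphoid cells (ILC1) and invariant NKT (iNKT) cells are enriched in liver and carry many of these receptors, and activated CD8 T cells acquire some of them.

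After filtering, 5975 NCD, 6516 HFD 1, 10259 HFD 2 and 8540 JQF cells were kept, with 67615639 to 108062769 UMIs (counted molecules) per library. The median depth was 13081 UMIs per cell in NCD and 7608 to 8884 in the other libraries. Cells were assigned to types by marker UMIs, and no Klr gene was used for this. The samples carry the tag hematopoietic stem cell in the labels, which does not describe the mature types found. NK cells (Ncr1 with Eomes, S1pr5 or Itga2, no Cd3 and no ILC1 marker named next) numbered 3 in NCD, 83 and 46 in HFD 1 and HFD 2, and 58 in JQF. ILC1-like cells (Ncr1 with Cxcr6, Itga1, Cd200r1 or Il7r, no Cd3 and none of those NK markers) numbered 29, 163, 40 and 80 in the same order. Cells with Ncr1 and markers of both sets (15, 94, 28 and 46) or of neither (0, 9, 9 and 6) were left out of both types, and held 5.58% of the UMIs of the family. iNKT-like cells (Cd3 with Zbtb16) numbered 270, 249, 186 and 1739. CD8 T cells numbered 192, 912, 971 and 640. Dendritic cells (DC) numbered 324, 836, 998 and 976. The summed ILC1 markers not used for the assignment (Tnfsf10, Tmem176a, Tmem176b, Inpp4b) lay at 1273 to 2440 CPM (UMI counts scaled to the usual common total) in ILC1-like cells and at 34.0 to 138 CPM in NK cells. The rearranged iNKT gene Trav11 reached 21.9 to 31.2 CPM in the iNKT-like cells of HFD and JQF and 3.25 CPM in those of NCD, and Trav11d had no UMI in any of them. The whole list of iNKT markers, with Il4, Icos and Tbx21 added, went the other way. It summed to 1583 CPM in NCD and to 711, 882 and 871 CPM in HFD 1, HFD 2 and JQF. Endothelial cells made up 3248 of the NCD cells, and the summed endothelial markers Bmp2, Oit3 and Mmrn2 stood apart in NCD in most immune types. They were at 619 CPM in ILC1-like, 687 CPM in iNKT-like, 381 CPM in CD8 T and 1342 CPM in DC of NCD, against 8.81 to 56.0, 7.35 to 269, 1.39 to 9.74 and 8.19 to 137 CPM in the other libraries. Their part in any difference from NCD given here was not tested.

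All 26 members lie on chromosome 6 (GRCm38, GENCODE M21), and only 3 of them (Klrb1f, Klre1 and Klrd1) lie on the plus strand. Klrg2 (38625693 to 38637242) and Klrg1 (122270596 to 122282882) stand apart, and the other members fill the interval from 128609227 to 131247362, the natural killer gene complex. The Klra genes other than Klra2 follow each other without another member between them. The stretch of up to 250 bases before the start is shown for 3 of them, since Klra4 and Klra8 were the most NK-restricted members and Klra17 was the Klra gene of DC. Sequences are from RefSeq on GRCm38.p6, 5′ to 3′ on the minus strand, at chr6:130067272-130067521 for Klra4, chr6:130129899-130130148 for Klra8 and chr6:129876673-129876922 for Klra17.
Klra4: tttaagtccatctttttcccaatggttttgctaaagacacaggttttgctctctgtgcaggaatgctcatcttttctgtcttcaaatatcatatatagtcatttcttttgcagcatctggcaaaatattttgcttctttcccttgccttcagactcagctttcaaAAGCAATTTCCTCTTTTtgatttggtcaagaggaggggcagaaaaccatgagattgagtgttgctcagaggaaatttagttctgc
Klra8: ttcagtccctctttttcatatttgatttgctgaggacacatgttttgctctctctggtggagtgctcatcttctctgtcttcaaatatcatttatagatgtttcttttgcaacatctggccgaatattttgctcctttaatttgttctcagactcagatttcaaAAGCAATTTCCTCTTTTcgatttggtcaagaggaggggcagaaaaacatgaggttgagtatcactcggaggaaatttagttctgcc
Klra17: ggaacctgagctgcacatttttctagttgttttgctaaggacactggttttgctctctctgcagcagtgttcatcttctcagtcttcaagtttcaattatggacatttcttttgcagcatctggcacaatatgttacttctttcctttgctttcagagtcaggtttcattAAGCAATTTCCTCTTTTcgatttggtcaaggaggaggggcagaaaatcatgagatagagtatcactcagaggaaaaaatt
Capitals mark AAGCAATTTCCTCTTTT, the longest run of letters that the 3 sequences share, which is 17 bases long and begins 85, 86 and 80 bases before the start of Klra4, Klra8 and Klra17. Over the 250 bases, Klra4 was 84.8% identical to Klra8 and 81.2% to Klra17, and Klra8 was 79.6% identical to Klra17. On either strand, the run was found before 6 of the 11 Klra genes (Klra3, Klra4, Klra6, Klra8, Klra9 and Klra17) and before 0 of the other members with a sequence. Of all 27025 genes with a sequence, 7 held it (0.0259%), the remaining gene being Gm52487. The 3 genes with this shared stretch were measured in different cells, Klra4 and Klra8 in NK cells and Klra17 in DC.

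The members were spread unevenly over the cell types. NK cells held the highest family level in every library, with 7477, 8397, 8226 and 5643 CPM in NCD, HFD 1, HFD 2 and JQF. ILC1-like cells followed with 3454, 5107, 5484 and 4235 CPM. iNKT-like cells held 1155, 1464, 1335 and 1021 CPM, and CD8 T cells 1284, 759, 677 and 784 CPM. DC held 278 to 434 CPM. B cells, a type without known use of most members, held 16.4 to 55.5 CPM, and endothelial cells 2.66 to 11.9 CPM. The order of NK, ILC1-like and DC was the same in all 4 libraries, whereas iNKT-like cells stood above CD8 T cells in HFD and JQF and below them in NCD. At least 50 CPM in 1 or more libraries was reached by 18 members in NK, 12 in ILC1-like, 8 in iNKT-like, 5 in CD8 T cells, 4 in DC and 0 in B or endothelial cells. Since 3′ UMI counts are not scaled to transcript length, levels are compared here between cells and libraries and not between genes.

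**Figure D1:**
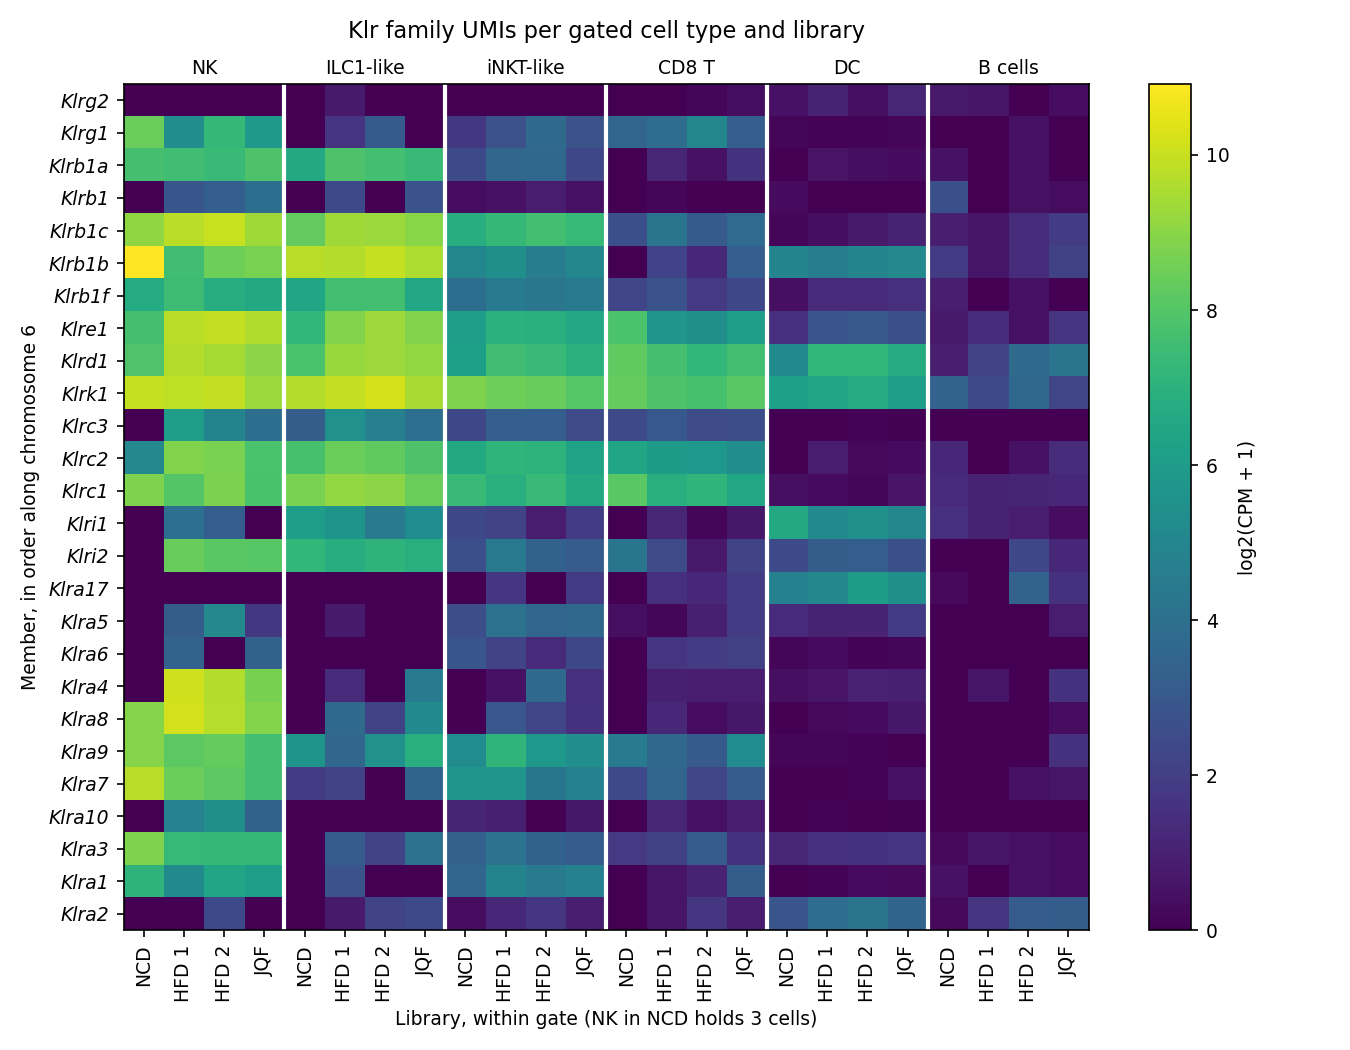
Heat map of log2(CPM + 1) for each family member (rows, in chromosome order) in NK, ILC1-like, iNKT-like, CD8 T, DC and B cells of each library (columns). The Klra block is brightest in NK cells, Klrd1 and Klrk1 run from NK cells through DC, and B cells are dark; the NK column of NCD rests on 3 cells.

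Of the UMIs of the family over all kept cells (168703), NK cells held 5.73%, ILC1-like cells 7.43%, iNKT-like cells 15.7%, CD8 T cells 11.3%, DC 12.7% and other Cd3 cells 22.3%. NK cells held 50.2% of the Klra4 UMIs and 54.9% of the Klra8 UMIs. DC held 60.6% of the UMIs of Klri1, 56.9% of those of Klra17 and 26.2% of those of Klrd1. Klra2 (Ly49B), a receptor known from myeloid cells, was the exception among the Klra genes, with 87.1% of its 16995 UMIs in cells outside all of these types that had no Cd3 UMI.

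In NK cells, JQF was compared with HFD, and the activating receptors Klra4 and Klra8 were lower. Klra4, an activating Ly49 receptor for class I molecules, was at 1119 and 811 CPM in HFD 1 and HFD 2 and at 406 CPM in JQF. Klra8, the activating receptor that recognizes a cytomegalovirus protein, was at 1149 and 836 CPM in HFD and 475 CPM in JQF. For both genes the JQF value lay below both HFD values, and the HFD values differed from each other by less than the lower of them did from JQF. Klra4 fell by 1.16 on the log2 scale (SE 0.21, edgeR quasi-likelihood test, adjusted p = 2.25e-06) and Klra8 fell by 0.98 (SE 0.20, adjusted p = 9.46e-05). Klrc2, the activating partner of Klrd1, was at 465, 425 and 227 CPM in HFD 1, HFD 2 and JQF and fell by 0.88 (SE 0.25, adjusted p = 0.0121). Klrb1b, an inhibitory receptor for the lectin Clec2d, was at 191 and 365 CPM in HFD and 423 CPM in JQF and rose by 0.79 (SE 0.24, adjusted p = 0.0221). Its HFD values lay farther apart than HFD 2 and JQF did.

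In all, 1 member rose and 3 fell of the 19 tested in NK cells, where 4.98% of all 6730 genes tested were called. The call of Klrb1b, the member that rose, was lost with library totals, no filter, thinned cells and DESeq2. The median log2 fold change of the members was -0.48, against -0.02 over all genes. With DESeq2 in place of edgeR the count was 0 of the members, against 0.327% of all genes, and the adjusted p of Klra4 ranged up to 0.0903 and that of Klra8 up to 0.266 over the alternatives. The fit left out the NCD library, which held 3 NK cells, and no test against NCD was made. In the NK cells of HFD 1, HFD 2 and JQF, the cDC1 markers Cadm1, Naaa and Wdfy4 summed to 14.7, 8.49 and 75.6 CPM and the neutrophil markers S100a8, S100a9 and Csf3r to 362, 17.0 and 4.72 CPM, and their part in the calls was not tested.

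The other receptors of NK cells did not pass the test. Klrk1, the receptor for stress-induced ligands, was at 943, 968 and 626 CPM in HFD 1, HFD 2 and JQF (log2 fold change -0.50, 95% interval -0.88 to -0.12, adjusted p = 0.127 by edgeR). Klrd1 was at 805, 688 and 513 CPM, and Klrc1, its inhibitory partner, at 250, 437 and 220 CPM. Klre1, which pairs with Klri1 or Klri2, was at 894, 976 and 780 CPM, and its activating partner Klri2 at 329, 280 and 269 CPM. The JQF values of these 5 members were the lowest of the 3 libraries. Klrb1c, the antigen by which NK cells of this strain are usually stained, was at 884, 1036 and 654 CPM. Klrb1a was at 191, 170 and 231 CPM and Klrb1f at 180, 110 and 99.2 CPM. Among the inhibitory Ly49 genes, Klra9 was at 290, 318 and 198 CPM, Klra7 at 337, 289 and 198 CPM, Klra3 at 159, 153 and 151 CPM and Klra1 at 36.0, 84.9 and 66.1 CPM. Klra3 was nearly level in the 3 libraries. Klrg1, a receptor for cadherins, was at 39.3, 153 and 56.7 CPM, so the HFD libraries were farther apart than JQF was from HFD 1. Klrc3 was at 68.7, 29.7 and 14.2 CPM. In the 3 NK cells of NCD, with 29022 UMIs in all, Klrk1 stood at 999 CPM and Klra8 at 482 CPM, and Klra4 had no UMI.

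Detection per cell followed the same order. A Klra4 UMI was found in 65.1%, 50% and 43.1% of NK cells in HFD 1, HFD 2 and JQF, and in 61.7%, 47.7% and 36.2% after each cell was thinned to 2000 UMIs. A Klra8 UMI was found in 67.5%, 63% and 55.2%, and in 64.2%, 50% and 46.6% of thinned cells. In B cells the shares were at most 0.41% for either gene, at a median depth of 5145.5 to 8691 UMIs against 5056.5 to 6633 in these NK cells. Of 10 Klra genes (all but Klra17), thinned NK cells held a mean of 2.22, 1.84 and 1.71 in HFD 1, HFD 2 and JQF, and 71.6%, 59.1% and 51.7% held at least 2. At least 1 was found in 88.9%, 86.4% and 86.2% of them. The share with at least 1 varied less between libraries than the share with at least 2, and neither was tested.

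Klra4 and Klra8 were often found in the same cell. In HFD 1, 41 thinned NK cells held both, 9 Klra4 alone, 11 Klra8 alone and 20 neither. Klra8 was detected in 82%, 71.4% and 61.9% of the cells with Klra4 in HFD 1, HFD 2 and JQF, and in 35.5%, 30.4% and 37.8% of those without it. The share was higher with Klra4 in all 3 libraries.

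**Figure D2:**
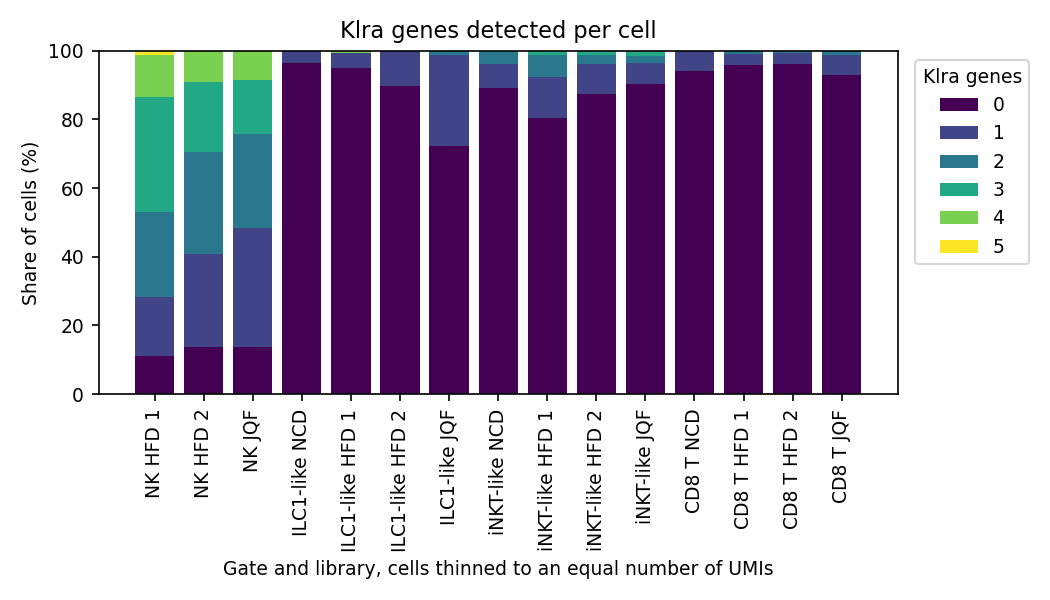
Share of cells (%) by the number of these 10 Klra genes detected, for cells thinned to 2000 UMIs, in each type and library; NK cells of NCD (3 cells) are left out. NK bars are mostly 1 or more genes, 88.9%, 86.4% and 86.2% of cells, whereas the dark part for 0 genes fills most of every other bar.

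NK and ILC1-like cells of the same library were then compared, to see which members separate the circulating from the liver-resident type. Klra genes were among those with the widest gap. Klra4 was at 1119, 811 and 406 CPM in NK cells of HFD 1, HFD 2 and JQF and at 1.47, 0 and 22.2 CPM in ILC1-like cells, higher in NK cells by 6.54 on the log2 scale (SE 0.63, adjusted p = 0.000161, edgeR). Klra8 was at 12.5, 3.74 and 35.5 CPM in ILC1-like cells and was higher in NK cells by 5.37 (SE 0.45, adjusted p = 7.65e-05). The ranges of the 2 types did not overlap for either gene, and the share of all genes without overlap was not counted. Klra7 differed by 5.61 (SE 0.42), Klra3 by 3.86 (SE 0.32), Klra1 by 3.86 (SE 0.66) and Klra9 by 2.45 (SE 0.56). Klra10 had 31 UMIs in NK cells and 0 in ILC1-like cells, at least 18.8-fold higher by the floor of 3 UMIs over the group. Klrg1 was higher in NK cells by 4.54 (SE 0.49, adjusted p = 0.000300), Klri2 by 1.23 (SE 0.17) and Klre1 by 0.69 (SE 0.13).

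Lower in NK cells were Klrb1b by -1.54 (SE 0.21, adjusted p = 0.00114), Klrc1 by -0.79 (SE 0.17, adjusted p = 0.0193) and Klri1, which pairs with Klre1 as an inhibitory receptor, by -2.34 (SE 0.55, adjusted p = 0.0254). Klri1 was at 49.9, 22.4 and 38.5 CPM in ILC1-like cells and at 14.7, 8.49 and 0 CPM in NK cells. In all, 10 members were higher and 3 lower in NK cells of 20 tested, where 8.83% of 7070 genes were called in either direction. The members' median was 0.57 against -0.01 over all genes. Klrk1 and Klrd1 were not called, with log2 fold changes of -0.26 (normal 95% interval -0.48 to -0.03) and 0.05 (interval -0.22 to 0.32). These intervals assume a normal spread and can be narrower than the test implies. The count was 8 without HFD replicate 1, where 326 of 5317 genes were called. Klra9, Klrc1 and Klre1 were among the members lost.

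**Figure D3:**
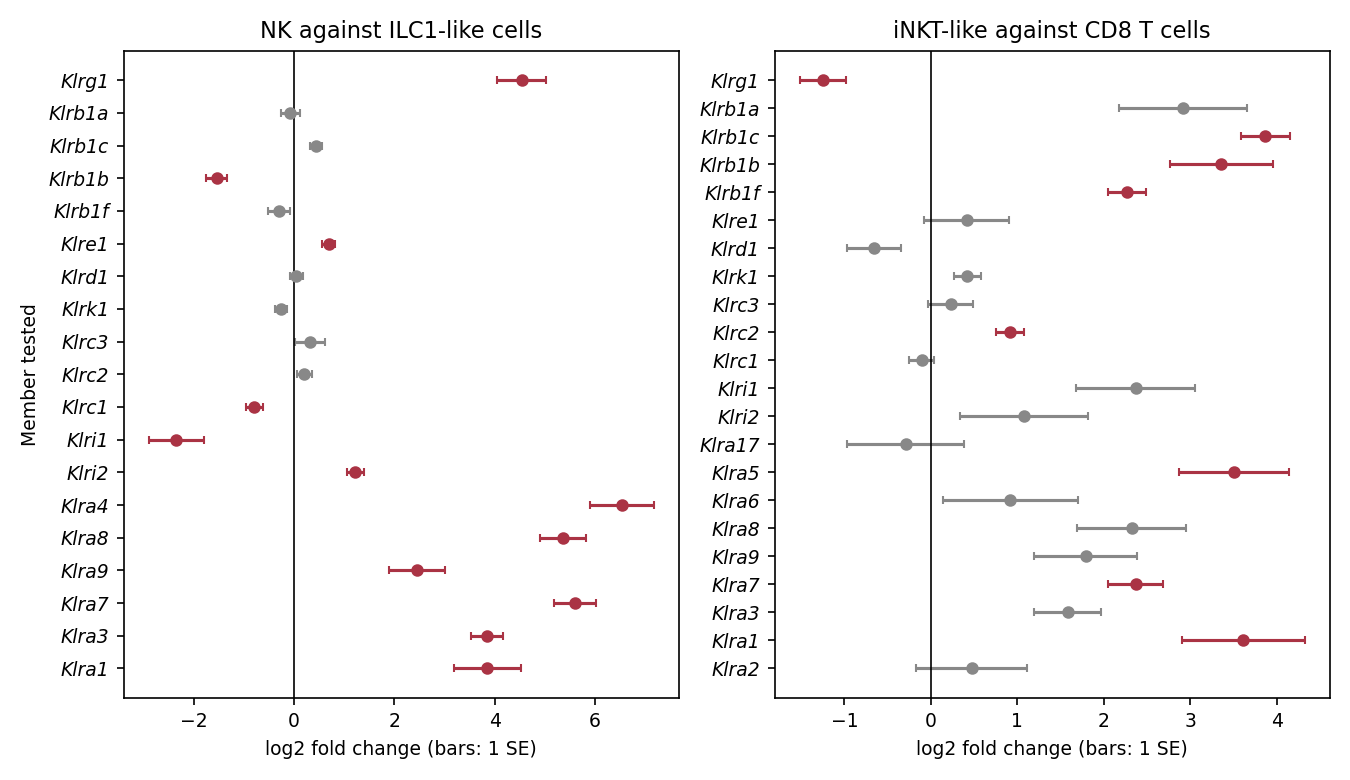
log2 fold change with 1 SE (horizontal bars) of each tested member between NK and ILC1-like cells (left, 3 libraries) and between iNKT-like and CD8 T cells (right, 4 libraries), red where the adjusted p was under 0.05. Klra genes reach 6.54 on the left while Klrb1b is at -1.54, and Klrb1c leads on the right with 3.87; Klra10, with no UMI in ILC1-like cells, is not drawn on the left.

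In ILC1-like cells, HFD was compared with NCD and several members were higher. Klre1 was at 148 CPM in NCD and at 466 and 635 CPM in HFD 1 and HFD 2, and rose by 1.88 (SE 0.35, edgeR adjusted p = 7.98e-05). Klrd1 was at 223, 607 and 635 CPM in the same order and rose by 1.48 (SE 0.32, adjusted p = 0.000840). The HFD values of both genes lay well above NCD. They were close together for Klrd1 and farther apart for Klre1. Of the Klrb1 receptors, 3 rose as well: Klrb1a (96.2, 230 and 198 CPM) by 1.16 (SE 0.35, adjusted p = 0.0184), Klrb1f (85.2, 192 and 194 CPM), a receptor for the lectin Clec2i, by 1.17 (SE 0.36, adjusted p = 0.0196), and Klrb1c (311, 654 and 609 CPM) by 1.02 (SE 0.31, adjusted p = 0.0182). Klrc3 was also called (adjusted p = 0.0453), on 3 UMIs in NCD against 69 in HFD, a ratio of 5.13 with an exact counting interval of 1.68 to 25.5.

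Thus 6 members rose and 0 fell of 15 tested, where 17.4% of 7892 genes were called, and the members' median of 1.02 (0.52 with the member at 0 UMIs in NCD set to its floor bound and 1 under the floor left out) stood against 0.06 over all genes. The NCD value rests on 29 cells. The monocyte markers Ly6c2 and F13a1 were at 2.75 CPM in the ILC1-like cells of NCD and 115 and 153 CPM in those of HFD, and the ILC1 markers at 1273 CPM in NCD and 2115 and 2440 CPM in HFD. Their part in the calls was not tested. The count was 1 with DESeq2, where 1.77% of all genes were called, and 1 with thinned cells, where 294 of 3281 genes were called. Klre1 was called in every alternative (adjusted p up to 0.0446). Among the members that did not pass, Klrk1 was at 817, 974 and 1169 CPM in NCD, HFD 1 and HFD 2, Klrb1b at 863, 817 and 979 CPM, Klrc1 at 421, 561 and 512 CPM and Klrc2 at 214, 347 and 306 CPM. Klri2 was at 148, 111 and 134 CPM and Klri1 at 66.0, 49.9 and 22.4 CPM, in both of which NCD was the highest.

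With JQF, 1 member rose and 0 fell in ILC1-like cells of 15 tested, where 2.28% of 7892 genes were called. This was Klra9 (Ly49I), at 11 and 44.8 CPM in HFD 1 and HFD 2 and 117 CPM in JQF, and rose by 2.72 on the log2 scale (SE 0.43, adjusted p = 4.20e-05). NCD stood at 49.5 CPM, close to HFD 2. The call was lost with DESeq2, with thinned cells and without the exclusion markers (adjusted p up to 1). The JQF cells of this type also held more of the NK marker set Gzma, Prf1, Itgam, Cma1 and Gzmb, 2128 CPM against 217 and 542 CPM in HFD, and 728 CPM of neutrophil markers (S100a8, S100a9, Csf3r) against 8.81 and 14.9 CPM, whose part was not tested. Of thinned JQF cells, 27.8% held a Klra gene, against 5% and 10.3% in HFD and 3.45% in NCD. The JQF values of the members named for HFD and NCD were 465 CPM for Klre1, 567 for Klrd1, 497 for Klrb1c, 166 for Klrb1a, 91.7 for Klrb1f, 724 for Klrk1, 771 for Klrb1b, 340 for Klrc1, 231 for Klrc2, 118 for Klri2 and 38.5 for Klri1. For Klre1, Klrd1, Klrb1a, Klrb1c, Klrb1f and Klrc2 they lay above NCD and below both HFD values, though Klre1 was nearly level with HFD 1 (466 CPM).

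In iNKT-like cells no member was called in either comparison, 0 of 21 against a background of 0% of 12254 genes for HFD against NCD and 0% for JQF against HFD. At an unadjusted p under 0.05 edgeR gave 4 members in the former and 1 in the latter, against 18.2% and 2.84% of all genes. DESeq2 called 1 and 0 members, against 4.45% and 0.228% of all genes. These counts were near those shares. Klrd1 was at 73.2 CPM in NCD, 186 and 168 CPM in HFD 1 and HFD 2 and 126 CPM in JQF (HFD against NCD 1.15, SE 0.20, edgeR adjusted p = 0.164). Klre1 was at 67.3, 125, 117 and 93.6 CPM in the same order. For both genes NCD was the lowest and JQF lay between NCD and HFD. Klrk1 went the other way, with 451, 362, 334 and 262 CPM. Klrb1c was at 111, 154, 195 and 157 CPM, Klrc2 at 99.2, 139, 132 and 79.6 CPM and Klrc1 at 165, 114, 167 and 97.8 CPM. Klra9 was at 37.5, 141, 56.2 and 40.1 CPM, where HFD 1 stood alone, and Klra7 at 52.2, 51.4, 18.0 and 26.4 CPM. Klra4 and Klra8 had no UMI in the 270 NCD cells, and in each HFD library the UMIs of either gene came from 1 cell (1 and 16 UMIs of Klra4 and 15 and 5 of Klra8 in HFD 1 and HFD 2), so no fold is given. In thinned cells, 10.8%, 19.7%, 12.6% and 9.68% held at least 1 Klra gene in NCD, HFD 1, HFD 2 and JQF.

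iNKT-like and CD8 T cells were compared within each library. Klrb1c was at 111 to 195 CPM in iNKT-like and 5.33 to 17.4 CPM in CD8 T cells, higher by 3.87 (SE 0.28, adjusted p = 0.00191, edgeR). Klrb1b was at 22.6 to 41.8 CPM in iNKT-like and 0 to 8.51 CPM in CD8 T cells, higher by 3.36 (SE 0.60). Klrb1f was at 14.5 to 22.5 against 2.53 to 5.84 CPM, higher by 2.27 (SE 0.22). The ranges of the 2 types did not overlap for these 3 Klrb1 genes, nor for Klra1, Klra5 and Klra7, named next. The share of all genes without overlap was not counted. Among the Ly49 genes, Klra5 was higher in iNKT-like cells by 3.51 (SE 0.63), Klra1 by 3.61 (SE 0.71) and Klra7 by 2.37 (SE 0.32), and Klrc2 was higher by 0.92 (SE 0.16). Klrg1, which marks terminal effector CD8 T cells, was lower in iNKT-like cells, at 2.36, 5.51, 12.5 and 5.96 CPM against 10.7, 14, 31.3 and 8.67 CPM in NCD, HFD 1, HFD 2 and JQF, by -1.25 (SE 0.26, adjusted p = 0.0387). In all, 7 members were higher and 1 lower of 22 tested, where 8.23% of 13082 genes were called, with a median of 1.33 against 0.00 over all genes. The count was 2 without HFD replicate 1, 5 without HFD replicate 2 and 5 with cells chosen by Trav11 in place of Zbtb16. Calls over all genes fell too, to 186 of 12713, 642 of 12752 and 630 of 12011 in the same order. Klrb1c and Klrb1f were called in every alternative.

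In CD8 T cells, Klrk1, Klrd1, Klrc1, Klre1 and Klrc2 reached at least 50 CPM in a library. In HFD against NCD, 1 of 20 members was called, where 3.85% of 13472 genes were called: Klre1 was at 227 CPM in NCD, 50.03 and 42.3 CPM in HFD 1 and HFD 2 and 66.4 CPM in JQF, and the fall from NCD to HFD was -2.21 on the log2 scale (SE 0.20, adjusted p = 0.0161 by edgeR). The call was lost without a filter on low counts (adjusted p = 0.217, the highest of a range from 3.38e-07). Klrd1 was at 307, 206, 149 and 197 CPM in the same order, Klrc1 at 274, 118, 142 and 89.4 CPM, Klrk1 at 320, 235, 210 and 279 CPM and Klrc2 at 84.5, 59.9, 55.9 and 40.2 CPM. NCD was the highest library for all 5 genes, yet none but Klre1 passed the adjusted test. The median over the members was 0.76, or 0.49 with 4 members at 0 UMIs in NCD set to their floor bounds and 2 under the floor left out, against 0.08 over all genes. With thinned cells, where 12 members were tested, the median was -0.51, the opposite sign. The 5 genes above had negative values. In JQF against HFD, 0 members were called by edgeR and 0 by DESeq2, where 0.00742% and 0.928% of all genes were called, and 4 of 20 had an unadjusted p under 0.05 by edgeR, against 9.18% of all genes. Neutrophil markers (S100a8, S100a9, Csf3r) summed to 1.78, 38.4, 848 and 20.2 CPM in the CD8 T cells of NCD, HFD 1, HFD 2 and JQF.

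The direction in CD8 T cells went against that in ILC1-like cells, where Klre1 and Klrd1 were lowest in NCD. That difference was not tested.

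CD8 T cells were divided by a UMI of Pdcd1, the inhibitory receptor of chronically stimulated T cells. Such a UMI was found in 102 of 192 cells in NCD (53.1%, exact 95% interval 45.8 to 60.3), in 48.1% and 63.2% of cells in HFD 1 and HFD 2 and in 23.4% in JQF, at a median depth of 12399.5 UMIs in NCD and 6750 to 8187.5 in the others. After thinning to 2000 UMIs the shares were 37.9%, 31.0%, 45.9% and 11.9%. At most 1.13% of B cells held a Pdcd1 UMI. The split itself used all UMIs, so NCD cells were divided at a greater depth. Klre1 in cells with Pdcd1 was at 351 CPM in NCD, 30.3 and 18.9 CPM in HFD and 109 CPM in JQF. In cells without Pdcd1 it was at 36.9, 68.0 and 87.3 and 53.0 CPM. Hence it was 9.52 times as high with Pdcd1 as without in NCD, 0.445 and 0.216 times in HFD and 2.06 times in JQF. Klrk1 was at 417, 97.3, 63.1 and 226 CPM with Pdcd1 and at 172, 360, 492 and 296 CPM without, in NCD, HFD 1, HFD 2 and JQF. Its ratio was 2.43, 0.270, 0.128 and 0.765. Klrc1 was at 398, 47.5, 119 and 76.0 CPM with Pdcd1 and at 84.5, 182, 186 and 93.5 CPM without. Klrd1 was at 436, 185, 123 and 225 CPM with Pdcd1 and at 110, 225, 199 and 187 CPM without. Klrc2 was at 104, 25.3, 45.8 and 23.1 CPM with Pdcd1 and at 54.8, 91.4, 75.2 and 45.5 CPM without. For all 5 genes NCD was higher with Pdcd1 and both HFD libraries were lower with it.

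**Figure D4:**
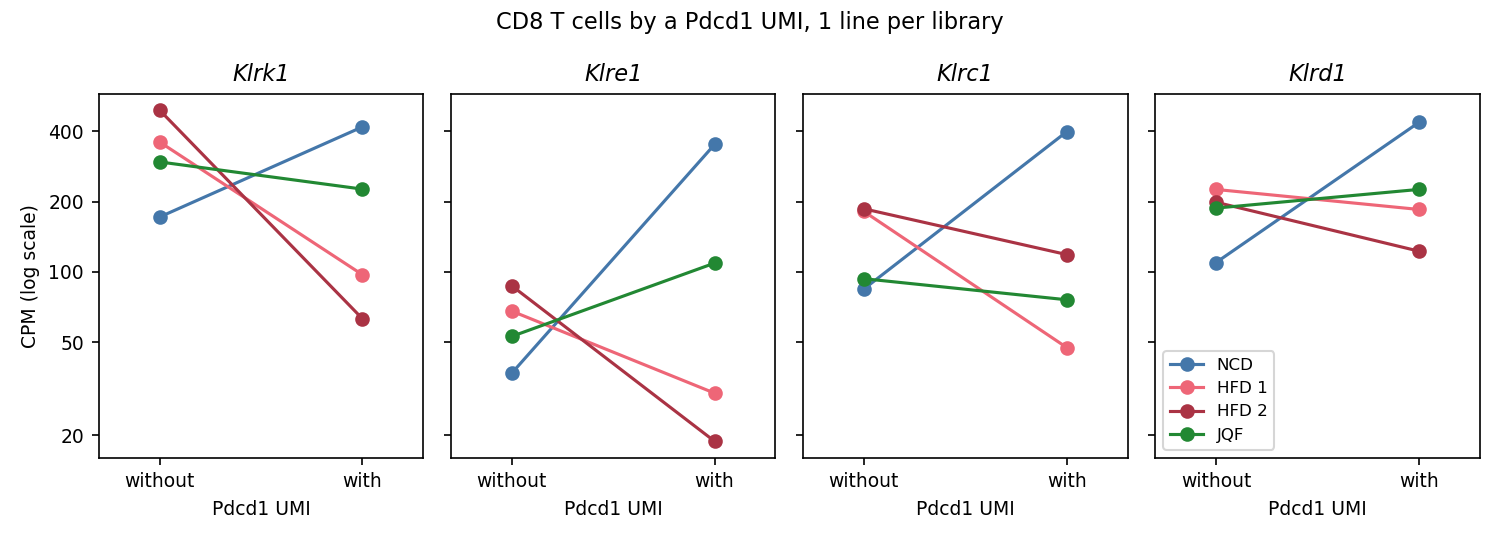
CPM (log axis) of Klrk1, Klre1, Klrc1 and Klrd1 in CD8 T cells without and with a Pdcd1 UMI, 1 line per library. The NCD line rises in all 4 panels, to 351 CPM for Klre1, while both HFD lines fall, to 30.3 and 18.9 CPM for Klre1.

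The change with Pdcd1 was compared between groups with an interaction term, added after these values were seen. Between HFD and NCD, 0 members were higher and 6 lower of 18 tested, where 2.69% of 12655 genes were called. The difference of the log2 changes (HFD minus NCD) was -4.90 for Klre1 (SE 0.38, edgeR adjusted p = 3.37e-08), -3.68 for Klrk1 (SE 0.39, adjusted p = 1.46e-06), -3.47 for Klrc1 (SE 0.38, adjusted p = 2.70e-06), -2.45 for Klrd1 (SE 0.33, adjusted p = 3.64e-05) and -2.14 for Klrc2 (SE 0.36, adjusted p = 0.000807). The remaining call was Klri2, with 50 UMIs in NCD cells with Pdcd1 and 0 in those without. Between JQF and HFD, 5 members were higher and 0 lower, where 1.84% of genes were called: Klre1 by 2.65 (SE 0.35, adjusted p = 5.88e-05), Klrk1 by 1.97 (SE 0.37, adjusted p = 0.00259), Klra9 by 3.06 (SE 0.51, adjusted p = 0.000858), Klri2 by 4.53 (SE 1.08, adjusted p = 0.0220) and Klra7 by 3.20 (SE 0.83, adjusted p = 0.0428). Few cells carry the last 2. In JQF cells with Pdcd1, Klri2 had 15 UMIs in 2.67% of cells and Klra7 28 UMIs in 2%. In those of HFD 2, Klri2 had 1 UMI and Klra7 had 7 UMIs in 0.326% of cells. With DESeq2 the counts of called members were 4 for HFD against NCD and 1 for JQF against HFD, where 0.324% and 0.229% of all genes were called. The alternatives run for this term were DESeq2, library totals, no filter and thinned cells. Klre1 was called in both comparisons under these 4, and Klrk1, Klrc1 and Klrd1 in that of HFD with NCD.

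Detection was also highest in NCD among cells with Pdcd1. In thinned cells with Pdcd1, Klre1 was found in 48%, 2.74%, 3.29% and 16.8% of cells in NCD, HFD 1, HFD 2 and JQF, and in 6.82%, 10.3%, 11.1% and 8.57% of those without. Unthinned, the shares with Pdcd1 were 86.3%, 7.29%, 4.56% and 28.7%, and at most 1.23% of B cells held a Klre1 UMI. The summed endothelial markers were at 501 CPM in the NCD cells with Pdcd1 and at 197 CPM in those without, against at most 10.7 CPM in the other libraries. The neutrophil markers were at 3.595, 13.6, 2436 and 25.0 CPM in the cells without Pdcd1 of NCD, HFD 1, HFD 2 and JQF and at 0.587, 65.6, 21.7 and 4.63 CPM in those with it. The cDC1 markers were at 143 CPM in the JQF cells with Pdcd1 and 12.8 to 15.4 CPM in those of NCD and HFD, and at 7.19 to 41.8 CPM in the cells without. The part of these marker sets was not tested. Within HFD, in the same fit, 0 members were higher and 12 lower with Pdcd1 of 18 tested, where 17.9% of 12655 genes were called. Among them were Klrk1 by -2.48 (SE 0.22, adjusted p = 6.43e-09, edgeR), Klra9 by -3.09 (SE 0.36, adjusted p = 3.76e-07), Klre1 by -1.73 (SE 0.21, adjusted p = 7.82e-07) and Klrc1 by -1.32 (SE 0.21, adjusted p = 4.50e-05), which were the 4 called with DESeq2 (4% of all genes) and under the other alternatives run for it. Over all 4 libraries with the library as a term, 0 members were higher and 2 lower with Pdcd1 of 17 tested, where 11.1% of 11688 genes were called: Klrg1 by -1.21 (SE 0.28, adjusted p = 0.0372, edgeR) and Klrb1f by -1.89 (SE 0.48, adjusted p = 0.0476). Klrg1 was at 4.70, 7.28, 28.6 and 3.97 CPM with Pdcd1 and 19.8, 20.2, 36.6 and 10.1 CPM without, the lower value being with Pdcd1 in all 4 libraries. Both calls were lost when any 1 of the 4 libraries was left out. Other members were then called lower, Klrc2 and Klrc3 without NCD, Klra3 without HFD 1 and Klra9 without JQF, and none without HFD 2.

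DC expressed Klrd1, Klrk1, Klri1 and Klra17. Klrd1 was at 35.4 CPM in NCD, 147 and 150 CPM in HFD 1 and HFD 2 and 108 CPM in JQF. The log2 difference between HFD and NCD was 2.25 (edgeR adjusted p = 0.0924), which did not pass. Its normal 95% interval, 1.95 to 2.54, is narrower than the test implies. Klrd1 was detected in 26.2%, 57.8%, 55.4% and 56.7% of DC, and in 7.19%, 22%, 21.5% and 18.6% of thinned DC. B cells had Klrd1 in 0.287% to 0.845% of thinned cells and at 0.882, 3.71, 12.9 and 17.6 CPM, with a median depth of 5145.5 to 8691 UMIs against 14348.5 to 23467.5 in DC. Empty barcodes of under 100 UMIs held Klrd1 at 35.0, 137, 59.8 and 83.2 CPM, also lowest in NCD, and the part of free RNA was not tested. Klri1 went the other way, with 96.0 CPM in NCD and 35.5, 43.7 and 31.5 CPM in the others. Klrk1 was at 72.4, 85.0, 108 and 68.7 CPM, and Klra17 (Ly49Q), known from plasmacytoid DC, at 27.1, 31.8, 62.5 and 42.5 CPM. Empty barcodes held Klrk1 at 53.8, 95.2, 60.8 and 81.7 CPM, above DC in HFD 1 and JQF. They held Klri1 at 4.90 to 6.70 CPM and Klra17 at 1.12 to 12.7 CPM. B cells held Klrk1 at 9.92, 4.24, 12.1 and 3.85 CPM in NCD, HFD 1, HFD 2 and JQF. The part of free RNA was not tested for these genes. No member was called by edgeR, 0 of 15 against 0% of 15682 genes for HFD against NCD and 0% for JQF against HFD, while 6 members and 1 member had an unadjusted p under 0.05, against 35.4% and 4.58% of all genes. DESeq2 called 4 and 0 members, against 26.1% and 0.74% of all genes. The 4 and the 6 were near those shares of 15. The members' median was 1.11, or 0.98 with a member at 0 UMIs in NCD set to its floor bound, against 0.08 over all genes in HFD against NCD.

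Separating the subsets placed these genes. In conventional type 2 DC (cDC2; 42, 185, 212 and 225 cells), Klrd1 was at 120, 390, 350 and 196 CPM in NCD, HFD 1, HFD 2 and JQF, against 24.8, 99.6, 101 and 82.3 CPM in type 1 DC (cDC1) and 4.59, 76.7, 72.5 and 92.0 CPM in mature DC. NCD was the lowest library in all 3 subsets. Its value in mature DC rests on 3 UMIs in 26 cells. The summed endothelial markers were at 1465 CPM in the cDC1 of NCD and 9.98 to 181 CPM in those of the others. In mature DC they were at 1900 CPM in NCD and 4.26 to 118 CPM in the others. Their part in these differences was not tested. Klri1 was at 266, 57.7, 70.6 and 32.6 CPM in cDC2 and at 79.4, 22.1, 32.0 and 26.9 CPM in cDC1, with NCD the highest in both. In mature DC it was at 42.8, 84.7, 77.5 and 72.6 CPM, with NCD the lowest. Klra17 was at 42.1, 89.4, 93.2 and 64.8 CPM in cDC2. In plasmacytoid DC it was at 269 CPM in HFD 2 and 212 CPM in JQF, and NCD and HFD 1 held 6 and 7 such cells, so no test of this subset was made. Plasmacytoid DC also held Klrd1, at 205 and 169 CPM in HFD 2 and JQF. In the few such cells of NCD and HFD 1 it was at 232 and 79.9 CPM, on 18 and 9 UMIs, so NCD was not the lowest library here.

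**Figure D5:**
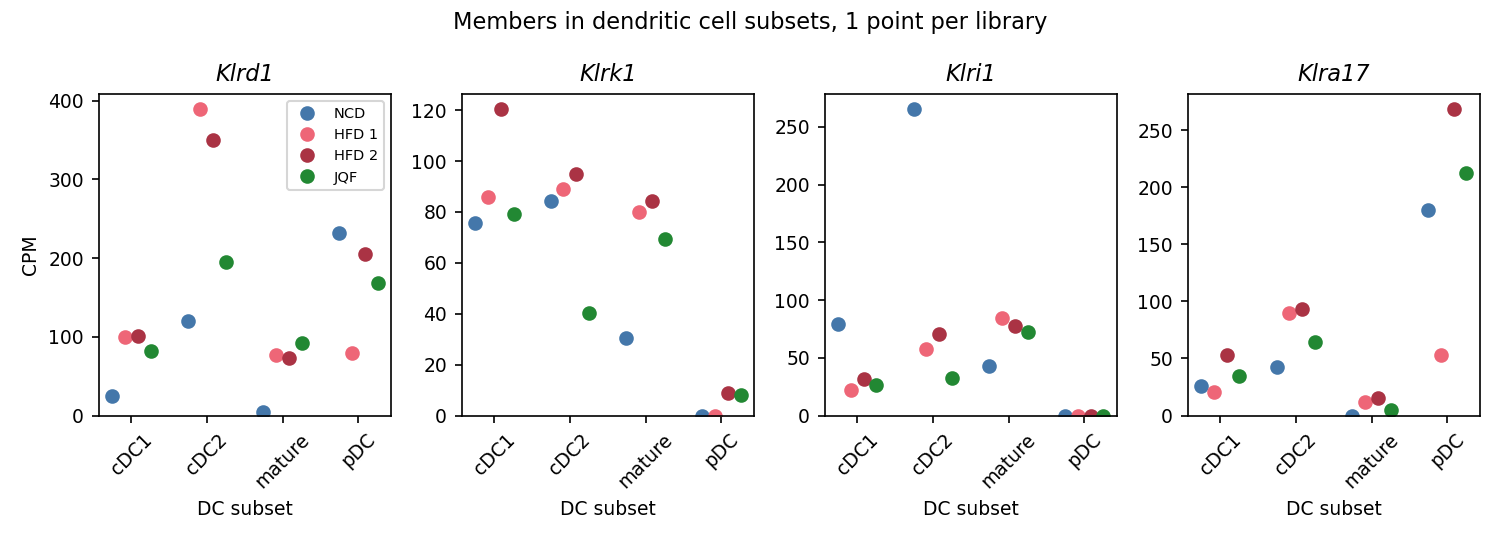
CPM of Klrd1, Klrk1, Klri1 and Klra17 in type 1, type 2, mature and plasmacytoid DC, with 1 point per library. Klrd1 in type 2 DC is lowest in NCD (120 CPM) and highest in HFD (390 and 350 CPM), Klri1 in type 2 DC is highest in NCD (266 CPM), and Klra17 reaches 269 CPM in plasmacytoid DC of HFD 2.

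Tested in cDC2 alone, a fit added after the values were seen, 2 members rose and 2 fell of 11 between HFD and NCD, where 16.4% of 11681 genes were called. Klrd1 rose by 1.53 (SE 0.20, edgeR adjusted p = 0.00745) and Klra17 by 1.02 (SE 0.23, adjusted p = 0.0324). Klri1 fell by 2.14 (SE 0.20, adjusted p = 0.00351) and Klrb1b, at 84.2, 41.4, 42.9 and 33.2 CPM, fell by 1.09 (SE 0.21, adjusted p = 0.0220). Endothelial markers were at 143 CPM in the cDC2 of NCD and 3.96 to 16.5 CPM in the others. The cDC1 markers Cadm1, Naaa and Wdfy4 summed to 927 CPM in the cDC2 of NCD and 510 to 584 CPM in the others, and the cDC2 markers Clec10a, Mgl2 and Sirpa to 338 CPM in NCD and 417 to 546 CPM in the others. The part of these markers in the calls was not tested. Klrk1 in cDC2 was at 84.2, 89.0, 94.8 and 40.3 CPM, and JQF differed from HFD by -1.08 (edgeR adjusted p = 0.0669), which did not pass. Its normal 95% interval, -1.45 to -0.70, is narrower than the test implies. No member was called in cDC2 for JQF against HFD, where 1.21% of genes were called, and 4 of 11 had an unadjusted p under 0.05, against 12.8% of all genes. In cDC1, 0 of 12 members were called in either comparison, as were 0% of 14713 genes for HFD against NCD and 0% for JQF against HFD, with 5 members and 1 member at an unadjusted p under 0.05, against 34% and 2.98% of all genes.

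Genes that serve these receptors were read from lists of adaptors and signalling molecules (12 genes), class I ligands (4), NKG2D ligands (5), Clr ligands of the Klrb1 receptors (6), cadherin ligands of Klrg1 (3) and other NK receptors (9). In ILC1-like cells of HFD against NCD, 3 adaptors rose and 1 fell of 12, where 17.4% of all genes were called: Vav1 rose by 1.73 (SE 0.44), Fcer1g by 1.05 (SE 0.31) and Tyrobp by 0.86 (SE 0.31), and Inpp5d, an inhibitory phosphatase, fell by 0.96 (SE 0.29). Of the 7 other NK receptors tested, 4 rose and 0 fell, Cd96 by 1.299, Cd226 by 1.28, Cd244a by 1.17 and Ncr1, which defined the cells, by 0.92. The class I genes H2-K1 and B2m rose by 0.90 each. The NKG2D ligand Raet1e was at 396 CPM in NCD and at 63.1, 74.7 and 144 CPM in HFD 1, HFD 2 and JQF, and fell by 2.57 (SE 0.32, adjusted p = 2.96e-08, edgeR) from NCD to HFD. From HFD to JQF it rose by 1.17 (SE 0.33) in ILC1-like cells and by 1.82 (SE 0.44) in NK cells, the sole called gene of the lists in NK cells. Ptpn6 rose by 1.11 (SE 0.31) in ILC1-like cells with JQF. In cDC2, Raet1e fell by 1.74 (SE 0.25) and Ulbp1 rose by 2.61 (SE 0.68) from NCD to HFD, the latter on 2 UMIs in NCD, and Cdh1 rose by 1.49 (SE 0.23) from HFD to JQF. Of the adaptors in cDC2, Fcer1g rose by 1.27 and Ptpn6 by 0.75, Vav1 fell by 1.012 and Syk fell by 0.82, and H2-T23 rose by 1.009, from NCD to HFD.

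Between NK and ILC1-like cells the adaptors split, with Sh2d1a higher in NK cells by 2.97 (SE 0.29), Syk by 1.08 and Tyrobp by 0.71, and Zap70 lower by -0.75 (3 higher and 1 lower of 12, where 8.83% of all genes were called). Of the other NK receptors, 0 were higher and 4 lower of 8, with Cd160 and Cd226 both at -2.30, Cd96 at -1.08 and Slamf7 at -0.95, and 3 of 4 class I genes were lower (H2-T23, the ligand of the Klrd1 pairs, by -0.62). iNKT-like cells held more Fcer1g than CD8 T cells by 1.89 (SE 0.18) and more Syk by 1.56 (SE 0.27), and less Tigit by -2.44 (SE 0.40). In CD8 T cells, Tyrobp had 3 UMIs in NCD against 725 in HFD, a ratio of 46.3 with an exact counting interval of 15.8 to 225 (edgeR adjusted p = 0.0190). Tyrobp is also a gene of myeloid cells, and beside the neutrophil markers given above, the macrophage markers C1qb, Cd68 and Clec4f were at 6.39 CPM in the CD8 T cells of NCD and 16.3 and 52.4 CPM in those of HFD. Their part in the ratio was not tested. Ptpn6 rose there by 1.58 (SE 0.24) and the cadherin Cdh4 fell by 6.21 (SE 0.69), from 17.8 CPM in NCD to 0.278 and 0.133 CPM in HFD. The summed endothelial markers in these cells were at 381 CPM in NCD and 1.39 and 9.74 CPM in HFD. Cdh4 was also highest in NCD in DC, at 122, 1.81, 24.3 and 8.88 CPM in NCD, HFD 1, HFD 2 and JQF. The part of endothelial RNA in the fall of Cdh4 was not tested. With Pdcd1, 3 of 11 adaptors tested (Sh2d1a, Ptpn11 and Zap70), 1 of 4 class I genes (H2-T23) and 2 of 9 other NK receptors (Tigit and Cd244a) were higher in CD8 T cells and 0 list genes were lower, where 11.1% of all genes were called. No list gene was called in iNKT-like cells or in DC between groups. Clr ligands were called in none of the comparisons of cell types or groups other than the change with Pdcd1 between JQF and HFD (Clec2i, 2.45). That interaction also gave Tyrobp (1.94), Ptpn6 (1.33) and Sh2d1a (-1.28), and that of HFD with NCD gave Slamf6 (2.25) and Cd226 (-1.26).

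The genes most like 2 members were ranked over 19 sums of a cell type in a library, among 6590 genes, as a description. Klrk1 was closest to Stk24 (Spearman rho 0.967), Mgat5 (0.954), Klrc2 (0.953), Rad54l2 (0.946) and Klrb1f (0.944). Klrb1c was closest to Samd3 (0.972), Ncr1 (0.972), Gm43647 (0.967), Nudt4 (0.961) and Zfp512 (0.960), of which Ncr1 was used to define NK and ILC1-like cells. The points share libraries and cell types.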

How the data were processed

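Whole-liver cell suspensions were profiled on the 10x Genomics 3′ v3.1 platform, with 1 NCD, 2 HFD and 1 JQF library. The values the authors deposited are unnormalized UMI counts for each gene in each barcode, in filtered and unfiltered matrices of mm10. The submitters' processing notes name Cell Ranger 6.0.1 and Seurat 4.0.3, while the file headers give 7.0.0 for the filtered matrices and 4 for the unfiltered, so whether intronic reads were counted is not settled.

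Cells were retained at 500 or more genes and 20% or less mitochondrial UMIs, then assigned to types by at least 1 UMI of defining markers, with exclusion markers against doublets and no doublet caller. The libraries shared 14 to 30 barcodes pairwise. Counts were summed per library and type and tested with the edgeR 4.0.16 quasi-likelihood test (R 4.3.3, TMM, filterByExpr, Benjamini-Hochberg over all genes tested, threshold 0.05), in types with at least 20 cells per library. Group fits had group as the only term and 1 residual degree of freedom, from the HFD pair, so that NCD and JQF were assumed to vary like it. In all fits the spread of each gene was moderated by that of the other genes tested in the same cells. The single NCD and JQF libraries cannot be told apart from their groups. Fits of cell types had the library as a term. The SE is the absolute log2 fold change over the square root of F. The 95% intervals of log2 fold changes assume a normal spread of this SE. Where the test had few degrees of freedom they are narrower than the test implies, and calls rest on the p-value alone. DESeq2 1.42.0, library totals, no filter, a minimum of 200 genes, no exclusion markers, leaving out the top 5% of cells by UMIs and thinning to 2000 UMIs per cell were alternatives, and the fitting code was tested on simulated data. Intervals of shares are exact Clopper-Pearson at 95%. These and the floor of 3 UMIs cover counting error only. Python 3.11.15 with numpy 2.4.6, scipy 1.17.1, pandas 2.3.3 and biopython 1.88 was used.

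Members and lists were chosen with earlier results of these data known. Values per library are given for members with at least 50 CPM in a library of a type or called there, and of each list at most 4 called genes are named by size. The interaction and the fits of DC subsets were added after values were seen. In the last 500 bases of the transcripts, 7 members shared over 10% of their 60-base windows with another (Klra9 38.7%, Klrc1 37.5%, Klra10 32.4%, Klra3 21.2%, Klrc3 17.9%, Klra7 17.3% and Klrc2 13.0%), so their reads may be split or lost. Klrb1b and Klrb1c overlap Gm44511 on the same strand, a gene that is not among those counted. RefSeq promoter sequences matched 23 of 26 members.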

Additional observations from a re-analysis of the deposited data

Results flagged for a closer look

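The change of 5 members with a Pdcd1 UMI in CD8 T cells differed between HFD and NCD by the interaction test of edgeR, beside Klri2, whose fitted value is not given because it had 0 UMIs in the NCD cells without Pdcd1. The differences of the log2 changes, HFD minus NCD, were -4.90 for Klre1, -3.68 for Klrk1, -3.47 for Klrc1, -2.45 for Klrd1 and -2.14 for Klrc2. The NCD library was higher with Pdcd1 and both HFD libraries were lower. NCD is 1 library, and its CD8 T cells with Pdcd1 also held the endothelial markers at 501 CPM. The HFD 2 cells without Pdcd1 held neutrophil markers at 2436 CPM.

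The same change differed between JQF and HFD for 5 members, by 2.65 for Klre1, 1.97 for Klrk1, 4.53 for Klri2, 3.06 for Klra9 and 3.20 for Klra7. Klri2, Klra9 and Klra7 rest on 1 to 59 UMIs with Pdcd1 in each library, and in JQF these came from 2.67%, 5.33% and 2% of those cells.

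Klre1 and Klrd1 went in opposite directions between HFD and NCD in ILC1-like and CD8 T cells. Klre1 was higher in HFD than in NCD in ILC1-like cells in both HFD libraries and lower in CD8 T cells in both, a gap of 4.08 on the log2 scale, and Klrd1 showed a gap of 2.18. These 2 differences were not tested. In the CD8 T cells without a Pdcd1 UMI the direction was instead that of ILC1-like cells. Klre1 was at 36.9 CPM there in NCD and 68.0 and 87.3 CPM in HFD, and Klrd1 at 110 CPM in NCD and 225 and 199 CPM in HFD.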

How the results depend on the processing

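Counts of members called moved by more than 1.5 times in the following alternatives. With DESeq2 the count was 0 in NK cells for JQF against HFD (4 by edgeR), 1 and 0 in ILC1-like cells (6 and 1), 1 in iNKT-like cells for HFD against NCD (0), 4 in DC (0), 5 for CD8 T cells with against without Pdcd1 (2), 1 for the change with Pdcd1 in JQF against HFD (5) and 4 for that within HFD (12). In the same order, DESeq2 called 22 of 6730, 140 and 6 of 7892, 545 of 12254, 4095 of 15682, 1325 of 11688, and 29 and 506 of 12655 genes. With thinned cells the count of members was 2 in NK cells, 1 and 0 in ILC1-like cells, 2 for the change in JQF against HFD and 6 for that within HFD. In the same order, 114 of 3103, 294 and 53 of 3281, and 37 and 1284 of 9432 genes were called. Without exclusion markers the count was 2 and 0 in ILC1-like cells, where 353 and 0 of 8527 genes were called. With library totals only the count of members was 3 and 1 in CD8 T cells for HFD against NCD and JQF against HFD (1 and 0), and 1 for Pdcd1. Of all genes, 1613 and 178 of 13472 (518 and 1 in the main fit) and 1417 of 11688 were called. With no filter the count of members was 2 in iNKT-like cells, 0 in CD8 T cells for HFD against NCD, 13 for iNKT-like against CD8 T cells (8) and 7 for Pdcd1. In the same order, 1469 of 21052, 0 of 20576, 2138 of 22385 and 2093 of 20576 genes were called. The top 5% of cells left out gave 1 for Pdcd1, where 1512 of 11515 genes were called. Cells chosen by Trav11 gave 1 in iNKT-like cells for JQF against HFD and 5 against CD8 T cells, and cDC2 alone gave 4. In the same order, 60 of 6522, 630 of 12011 and 1917 of 11681 genes were called. Leaving out 1 library gave 8 to 13 for NK against ILC1-like cells, 2 to 9 for iNKT-like against CD8 T cells and 0 to 2 for Pdcd1. Of all genes, 326 of 5317, 411 of 7276 and 642 of 6227 were called in the first. The second gave 186 of 12713 to 897 of 13250, and Pdcd1 gave 136 of 11159 to 1195 of 11451.

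Of 435 values of called members under alternatives, 337 were counted as kept, 92 lost the call, 6 moved in size and 0 reversed. A kept value held its direction and its side of the threshold. In fits without a test it held its direction and lay within 1 SE of the main value. The minimum of 200 genes gave the same counts as the main fit in NK and ILC1-like cells, so it adds kept values there. Of 58 calls, 21 were kept in every alternative run for them, which for the 23 calls of the change with Pdcd1 were 4 alternatives. The 4 calls in cDC2, run once, are not among the 58. The causes of the losses were not tested. Without an HFD replicate the group fits have no residual degree of freedom, so they give folds only. No paired analysis was possible because the groups compared share only replicate number 1. HFD against NCD was not run for NK cells or for Trav11 cells, which have 3 and 10 cells in NCD, and plasmacytoid DC were not tested. Low counts limit the Ly49 genes outside NK cells.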
